A study of Mus musculus with 94 samples.

Results

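*Ly6a*, *Ly6c1* and *Ly6e* are 3 genes of the mouse Ly6 family of cell surface antigens. Their rows were taken from a table of 16069 genes measured in single cells of perivascular fat. The authors call these cells mesenchymal stem cells (PV-ADSCs). The 3 genes were chosen by name, and *Ly6a* encodes Sca1, a surface antigen used to sort the cells. Each library was 1 uncultured primary cell of the fat that surrounds the thoracic aorta in 8-week-old mice labelled c57/bl, taken as a live single cell without CD45 and without CD144 (VE-cadherin) and with CD29 and Sca1 on its surface. All cells belong to 1 condition, with no treatment and no genetic change stated, and the table holds 85 of the 94 cells that the series describes. No animal is named for a cell, so the cells are 1 sample: values are given as a description, with no test and no p-value between cells.

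Ly6 proteins are small, share a fold held together by disulfide bonds between cysteines, and are mostly held in the outer leaf of the cell membrane by a glycosylphosphatidylinositol (GPI) lipid anchor. Sca1 is the usual mouse antigen for enriching haematopoietic and mesenchymal stem and progenitor cells, and it is also found on endothelial cells. Ly6C, encoded by *Ly6c1* and its close relative *Ly6c2*, is best known from monocytes and T cells and is also present on endothelium, and *Ly6e* was described in thymocytes and is an interferon-inducible gene. Interferons raise Sca1 and Ly6C as well.

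The coding sequences of the 3 genes are shown because their likeness bears on how reads could be assigned to them. They are stretches of 300 bases, read 5′ to 3′ from the GENCODE vM21 transcripts of the GRCm38 build, that end 1 codon after the last cysteine codon, at coding bases 16 to 315 in *Ly6a* and *Ly6e* and 7 to 306 in *Ly6c1*. Capitals mark the cysteine codons (TGT or TGC), all of which fall in these stretches.
Ly6a: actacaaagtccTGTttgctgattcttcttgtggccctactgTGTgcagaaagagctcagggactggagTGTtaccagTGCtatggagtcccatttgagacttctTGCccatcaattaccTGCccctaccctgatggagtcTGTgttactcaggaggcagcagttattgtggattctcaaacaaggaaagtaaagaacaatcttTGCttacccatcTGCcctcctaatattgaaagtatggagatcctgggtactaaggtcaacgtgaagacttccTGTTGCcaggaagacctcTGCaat
Ly6c1: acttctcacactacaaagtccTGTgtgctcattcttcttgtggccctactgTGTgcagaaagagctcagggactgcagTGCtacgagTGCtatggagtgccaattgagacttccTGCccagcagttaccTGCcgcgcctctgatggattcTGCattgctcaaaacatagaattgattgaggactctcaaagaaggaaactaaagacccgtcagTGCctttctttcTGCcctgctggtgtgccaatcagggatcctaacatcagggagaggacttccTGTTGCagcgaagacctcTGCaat
Ly6e: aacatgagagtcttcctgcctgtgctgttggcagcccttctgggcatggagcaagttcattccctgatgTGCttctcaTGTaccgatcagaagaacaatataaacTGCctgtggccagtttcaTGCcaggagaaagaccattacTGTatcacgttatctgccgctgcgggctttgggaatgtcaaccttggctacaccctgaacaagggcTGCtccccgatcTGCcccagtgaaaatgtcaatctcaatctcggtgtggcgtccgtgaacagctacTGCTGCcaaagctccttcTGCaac

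The whole coding sequence of *Ly6a* has 134 codons, that of *Ly6c1* has 131 and that of *Ly6e* has 136, with 12, 12 and 10 cysteine codons. *Ly6a* and *Ly6c1* were identical at 83.7% of 393 aligned coding bases, whereas *Ly6e* was identical to *Ly6a* at 60.9% and to *Ly6c1* at 58.2%. All 3 genes lie on chromosome 15 of GRCm38, where *Ly6a* is flanked by *Ly6i* and *Ly6c1*, and *Ly6c1* by *Ly6a* and *Ly6c2*. No other gene of the annotation overlaps any of them. *Ly6c2* was identical to *Ly6c1* at 97.7% of bases and differed from it at 9 of 393, of which 6 fall in coding bases 7 to 66, in capitals here.
Ly6c1: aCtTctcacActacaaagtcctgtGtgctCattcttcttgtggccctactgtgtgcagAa
Ly6c2: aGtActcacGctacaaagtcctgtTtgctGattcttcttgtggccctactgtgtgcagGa

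Cells were split by the deposited value of *Dcn*, which encodes decorin, a matrix proteoglycan of fibroblasts. The 58 cells with a value of at least 1000 are called stromal cells and the remaining 27 other cells. The deposited values are normalized read counts. In this table they are whole reads multiplied, for 13 groups of genes, by a factor for each cell and group, so the reads of each gene could be recovered. *Ly6e* values were the reads themselves, *Ly6a* values were reads times a factor between 0.372 and 32.3 (median 1.11, and at most 1.80 outside cell 50, whose *Ly6a* value was 0), and *Ly6c1* values were reads times a factor between 0.741 and 1.10. The cells held between 1146945 and 4776510 recovered reads and between 285 and 4148 genes above 0. Other cells had fewer genes than stromal cells (median 1416 against 2813) at similar read totals (median 2714449 against 2963854).

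Some libraries go against their class or stand apart. Of the stromal cells, 2 carried at least 3 of 6 mesothelial markers at 100 or more recovered reads, as did 0 other cells. Stromal markers (at least 3 of 14 at 100 or more recovered reads) were carried by 57 of 58 stromal cells and 0 of 27 other cells, and endothelial markers (at least 3 of 15) by 24 of 27 other cells and 1 stromal cell. *Cdh5*, which encodes the CD144 that the sort gated against, was above 0 in 23 other cells and 7 stromal cells. Of these 7 stromal cells, 6 held only 1 to 9 *Cdh5* reads and none held more than 57. At 100 or more reads *Cdh5* was found in 20 other cells. Cell 50 passed the *Dcn* threshold with a value of 6521, made of 69 reads times a factor of 94.5, and carried no stromal marker at 100 reads. The next values inside the threshold were 11185 and 23960, and the highest outside were 269, 239 and 88.2. The 3 other cells that did not carry 3 endothelial markers (cells 13, 67 and 89) had 285 to 405 genes. Shares, differences, levels per length and correlations of the 3 genes are also given without cell 50 or without these 3 cells, and the remaining values include them.

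*Ly6a* was the member found in most stromal cells at high level. In stromal cells its values ran from 0 through a median of 8792 to 37675, and in other cells from 0 through 6419 to 32408. It was above 0 in 52 of 58 stromal cells (89.7%, exact 95% interval 78.8% to 96.1%) and in 21 of 27 other cells (77.8%, interval 57.7% to 91.4%). Without cell 50 the stromal share was 91.2%, and without the 3 cells under 500 genes the other share was 83.3%. Intervals cover counting error only. The distribution was split in both classes: no cell had a *Ly6a* value between 2.36 and 605, and the only cell between 0 and that gap was an other cell with 2 reads.

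The cells gated for Sca1 protein thus included 12 cells in which *Ly6a* was listed at 0, of which 6 were stromal and 6 other. Among the 6 stromal cells, 5 held *Ly6e* (50 to 4091 reads) and none held *Ly6c1*. In 4 of the 6 other cells without *Ly6a* (cells 10, 35, 76 and 80), *Ly6c1* was present at 4194 to 23622 reads and *Ly6e* at 5633 to 16191 reads. The last 2 (cells 13 and 89) held none of the 3 genes and had 377 and 405 genes in all. In the cells with at least 100 *Ly6a* reads the level was close between the classes, with a median value of 9132 over 52 stromal cells and 9350 over 20 other cells.

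*Ly6c1* was higher in other cells. Its values in stromal cells ran from 0 through a median of 1813 to 20017, and in other cells from 0 through 10902 to 38978. It was above 0 in 42 stromal cells (72.4%, interval 59.1% to 83.3%) and in 23 other cells (85.2%, interval 66.3% to 95.8%). The ranges overlapped. Among cells with at least 100 reads the median value was 4244 over 38 stromal cells and 12258 over 23 other cells. No cell had a *Ly6c1* value between 25.5 and 783. The 4 other cells without *Ly6c1* were the 3 cells under 500 genes and 1 more, so without those 3 the share of other cells was 95.8%, and without cell 50 that of stromal cells was 73.7%.

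*Ly6e* was also higher in other cells. In stromal cells it ran from 0 through a median of 982 reads to 6957, and in other cells from 0 through 5849 to 16191. It was above 0 in 51 stromal cells (87.9%, interval 76.7% to 95.01%) and in 25 other cells (92.6%, interval 75.7% to 99.1%), or 100% of the 24 other cells with more than 500 genes and 87.7% of stromal cells without cell 50. These similar shares hid low counts: 9 of the 51 stromal cells held only 1 to 9 reads, and at 100 or more reads *Ly6e* was found in 39 stromal cells (67.2%) and 23 other cells (85.2%). Other cells held 4 to 248 *Dcn* reads each, and 21 of the 27 held at least 10. Counts of 1 to 9 reads therefore cannot be told apart from a low background, and counts of 10 to 99 may not be clear of it. *Dcn* was far higher than *Ly6e* in stromal cells (median value 93093), and whether their background is alike was not tested. Among cells with at least 100 reads the median was 1860 over the stromal cells and 6842 over the other cells.

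**Figure D1:**
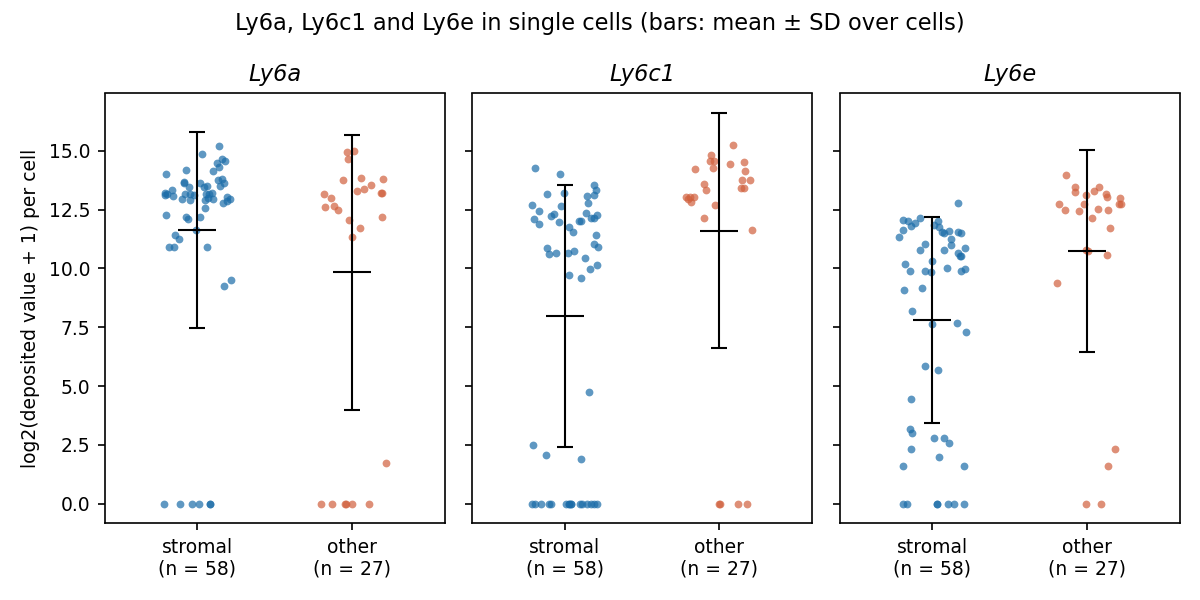
Each point is a cell, with the log2 of its deposited value plus 1 on the vertical axis, for *Ly6a*, *Ly6c1* and *Ly6e* in 58 stromal and 27 other cells; the bars give the mean ± SD over cells. Most cells sit either at 0 or above 9 on this scale for *Ly6a* and *Ly6c1*, whereas *Ly6e* in stromal cells also fills the range between, and the mean of the other cells lies above that of the stromal cells for *Ly6c1* and *Ly6e*, with overlapping values.

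On the scale of log2(value + 1), the mean of *Ly6c1* was 7.99 ± 5.57 (SD, n = 58 cells) in stromal and 11.61 ± 5.001 (SD, n = 27 cells) in other cells, a stromal minus other difference of -3.62. The mean of *Ly6e* was 7.82 ± 4.38 and 10.74 ± 4.29, a difference of -2.92. For *Ly6a* the means were 11.64 ± 4.15 and 9.83 ± 5.85, a difference of 1.80. Each difference was smaller than the SD within a class, zeros included.

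These differences were read against all 6127 genes above 0 in at least 10 cells. Of these, 60.3% had a mean at least 1 higher in stromal cells, and the median difference over all of them was 1.32. *Ly6a* was 1 of those genes, and 3952 of the 6127 had a lower difference. Only 3.69% of the genes had a mean at least 1 higher in other cells, and *Ly6c1* and *Ly6e* were both among these. Of the 6127 genes, 51 had a lower difference than *Ly6c1* and 76 a lower one than *Ly6e*. The number of genes per cell differed between the classes, and its part in these differences was not tested.

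The difference of *Ly6a* rested on few cells. Without the 3 other cells under 500 genes it was 0.65, no longer past 1, while that of *Ly6c1* became -5.07 and that of *Ly6e* -4.17. For *Ly6a*, over cells with at least 1000 genes it was 1.03, and over cells with at least 100 *Ly6a* reads it turned to -0.21. Over the cells with at least 100 reads of the gene in question, the difference was -1.73 for *Ly6c1* and -1.78 for *Ly6e*. Leaving out cell 50 gave 2.01 for *Ly6a*, -3.48 for *Ly6c1* and -2.97 for *Ly6e*.

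Levels were compared between the genes per length, as RPKM, the recovered reads scaled to transcript length and to the cell's total of recovered reads, with lengths of 819 bases for *Ly6a*, 844 for *Ly6c1* and 2281 for *Ly6e*. In stromal cells the median level was 3583 for *Ly6a*, 828 for *Ly6c1* and 160 for *Ly6e*. In other cells the order changed, with 6218 for *Ly6c1*, 2849 for *Ly6a* and 1049 for *Ly6e*. *Ly6a* was the highest of the 3 in 48 of 58 stromal cells and in 9 of 27 other cells, and *Ly6c1* was the highest in 3 stromal and 16 other cells. The length of *Ly6e* matters to its place: with its shortest principal transcript of 654 bases its median was 558 in stromal and 3659 in other cells, above that of *Ly6a* in the latter, and *Ly6c1* was the highest in 14 other cells. Without the 3 cells under 500 genes the medians of the other cells were 6809 for *Ly6c1*, 3525 for *Ly6a* and 1088 for *Ly6e*. Those of the stromal cells without cell 50 were 3637 for *Ly6a*, 909 for *Ly6c1* and 142 for *Ly6e*.

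All 3 genes were above 0 in the same cell in 56 of 85 cells (65.9%, interval 54.8% to 75.8%), of which 37 were stromal and 19 other. Without cell 50 this was 66.7% of cells, and without the 3 cells under 500 genes 68.3%. At 100 or more reads of each, this held for 43 cells, 25 of 58 stromal cells (43.1%, interval 30.2% to 56.8%) and 18 of 27 other cells (66.7%, interval 46.04% to 83.5%). The remaining stromal cells were spread over several states at 100 reads: 13 held *Ly6a* and *Ly6c1*, 10 held *Ly6a* and *Ly6e*, 4 held *Ly6a* alone, 4 held *Ly6e* alone and 2 held none. *Ly6c1* without *Ly6a* was found in 0 of 58 stromal cells (interval 0% to 6.16%), so every stromal cell above 0 for *Ly6c1* was above 0 for *Ly6a*. In other cells 4 of 27 held *Ly6c1* and *Ly6e* without *Ly6a*.

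**Figure D2:**
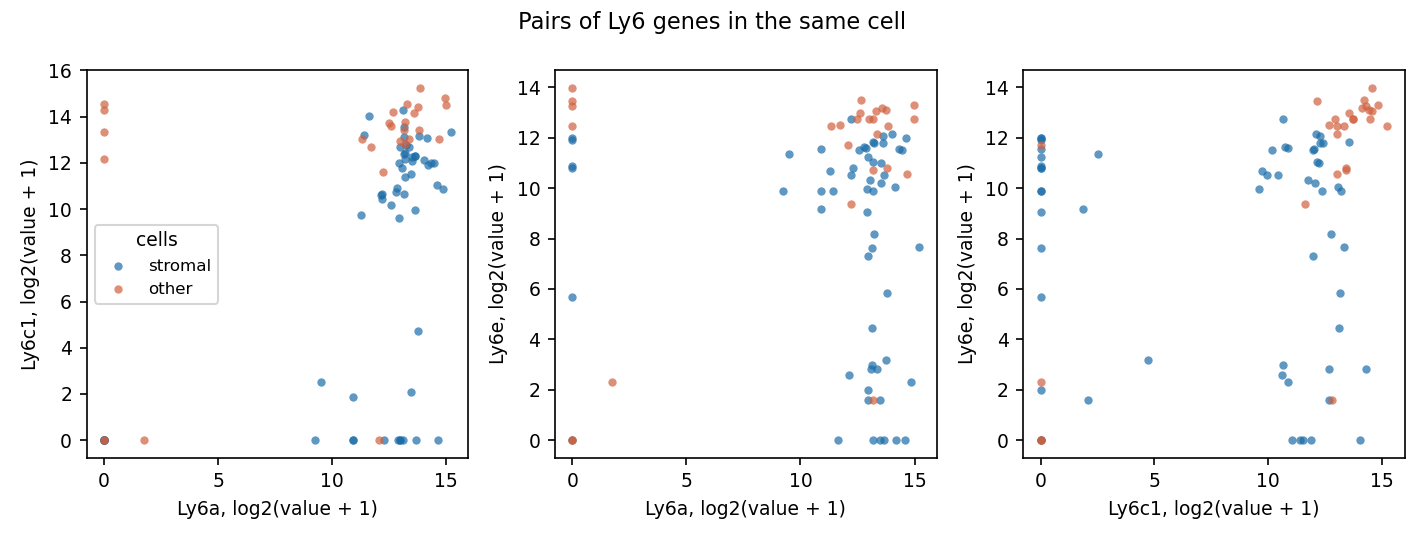
Each panel plots a pair of the genes in the same cell, both axes in log2(deposited value + 1), for 58 stromal and 27 other cells. In the left panel 4 other cells and no stromal cell lie high for *Ly6c1* at a *Ly6a* of 0; in the right panel the other cells with both genes form a group at the upper end, and stromal cells show no such line.

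The rank correlation of *Ly6a* and *Ly6c1* over cells was 0.38 in all 85 cells, 0.48 in the 58 stromal cells and 0.52 in the 27 other cells. For *Ly6a* and *Ly6e* it was -0.041, -0.13 and 0.083. For *Ly6c1* and *Ly6e* it was 0.43 over all cells, but -0.074 in stromal and 0.68 in other cells, so the value over all cells did not describe the stromal cells. Cells share the sort, the library preparation and a limited depth, and these values are a description. In other cells the number of genes above 0 had a rank correlation of 0.35 with *Ly6c1* and 0.46 with *Ly6e*, and its part in the 0.68 was not tested. Without the 3 cells under 500 genes the correlation of *Ly6c1* and *Ly6e* in other cells was 0.56, and those with the number of genes were 0.10 and 0.25. The correlation of *Ly6a* with *Ly6c1* was then 0.42 and that with *Ly6e* -0.16. In stromal cells without cell 50 the correlations were 0.46 for *Ly6a* and *Ly6c1*, -0.12 for *Ly6a* and *Ly6e* and -0.064 for *Ly6c1* and *Ly6e*.

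The reads of *Ly6c1* may include reads of *Ly6c2*, and the other way around. Of the 50-base windows of the *Ly6c1* transcript, 36.7% occur in another gene (252 windows in *Ly6c2* and 40 in *Ly6a*). Of its 100-base windows 15.3% do, all in *Ly6c2*. The part of the windows shared with *Ly6a* in the correlation and joint detection of *Ly6a* and *Ly6c1* was not tested. For *Ly6a* 8.05% of 50-base windows are shared (62 windows, of which 31 with *Ly6i*, 20 with *I830127L07Rik* and 11 with *Ly6c1*) and none of 720 100-base windows, and for *Ly6e* none of 2232 50-base windows. *Ly6c2* was above 0 in 38 stromal and 23 other cells at far lower levels than *Ly6c1*, with a highest value of 1336. In cells with at least 100 *Ly6c1* reads, *Ly6c2* reads came to a median of 3.03% of *Ly6c1* reads in 38 stromal cells (0% to 11.1%) and 0.748% in 23 other cells (0.0226% to 5.85%), so the ranges overlapped. Since the program that assigned reads is not given in the sources used here, the level of *Ly6c2* is uncertain.

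The table held 9 of 47 listed genes of the wider Ly6/uPAR family, and 6 of them were above 0 in at least 10 cells. Of these 6, 2 (33.3%) were higher in stromal cells by at least 1, beside 60.3% of all genes. In other cells 4 (66.7%) were higher, beside 3.69%. The median difference was -2.27 beside 1.32 for all genes. These counts include the 3 members described above. Without the members 3 genes remained, 1 higher in stromal and 2 in other cells, with a median of -1.62. One of these is *Ly6c2*, which may share reads with *Ly6c1*. Without the 3 cells under 500 genes *Ly6a* was no longer past 1, which left 1 of the 6 higher in stromal cells. *Gpihbp1*, the capillary endothelial protein that binds lipoprotein lipase, differed most: it held at least 100 reads in 21 of 27 other cells and 3 of 58 stromal cells, with means of 10.62 and 1.09. Of these stromal cells 1 was cell 50, with the highest stromal value of 45040, made of 1393 reads times a factor of 32.3. *Lynx1*, a modulator of nicotinic acetylcholine receptors, was above 0 in 15 stromal cells and 1 other cell. *Cd59a* and *Cd59b*, which encode inhibitors of the complement membrane attack complex, were each above 0 in 8 cells, and *Plaur*, the urokinase receptor, in 9.

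**Figure D3:**
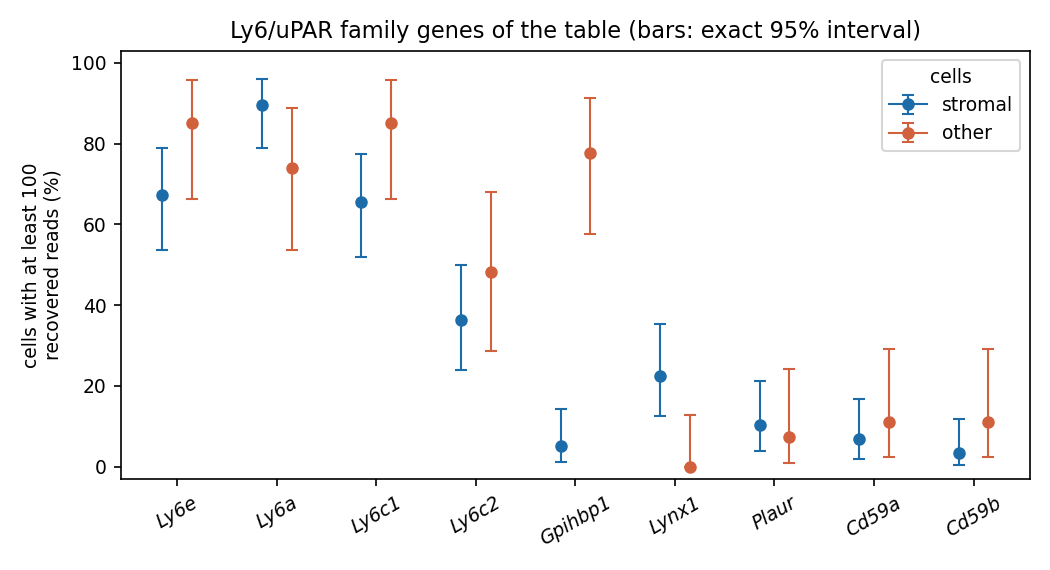
The points give the share of cells, in percent, with at least 100 recovered reads of each of the 9 Ly6/uPAR family genes in 58 stromal and 27 other cells, with exact 95% intervals for counting error. The intervals of the classes are apart for *Gpihbp1* (3 stromal and 21 other cells) and overlap for *Ly6a*, *Ly6c1*, *Ly6e* and *Ly6c2*.

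Most Ly6 proteins need a GPI anchor, and the genes that build it stood near the background of all genes. Of 24 such genes in the table, 9 (37.5%) were above 0 in at least 10 cells, beside 38.1% of all genes. Of the 9, 5 (55.6%) were higher in stromal cells by at least 1 and 0 in other cells, beside 60.3% and 3.69% of all genes, with a median difference of 1.15. *Dpm3*, a subunit of dolichol-phosphate mannose synthase, was above 0 in 40 stromal and 9 other cells. *Pigp*, of the complex that starts the anchor, was above 0 in 23 and 3, and *Pigs*, of the transamidase that attaches it, in 12 and 0. *Dpm1*, the catalytic subunit of the same synthase, was above 0 in 14 stromal and 6 other cells, with a difference of -0.20, and *Pigx* had a difference of -0.16.

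Of 13 genes for other GPI-anchored surface proteins, 10 (76.9%) were higher in stromal cells, beside 60.3% of all genes, and 3 (23.1%) in other cells, beside 3.69%. Their median difference was 2.99. The stromal examples were *Gpc3*, a heparan sulfate proteoglycan (50 stromal and 2 other cells, means 8.18 and 0.18), *Gas1*, a growth arrest and Hedgehog co-receptor protein (48 and 7 cells, means 7.62 and 0.92), and *Prnp*, the prion protein (45 and 3 cells, means 6.17 and 1.02). *Thy1*, a marker of mesenchymal cells and T cells, was above 0 in 17 stromal and 4 other cells. Of the 3 higher in other cells, the most widely detected was *Bst2*, the interferon-induced tetherin, with means of 3.55 and 5.17. Its difference of -1.62 was the smallest of the 3, and it was above 0 in 39.7% of stromal and 44.4% of other cells.

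The interferon response list holds genes of the pathway that raises the Ly6 antigens. Of 32 genes above 0 in at least 10 cells, 8 (25%) were higher in stromal cells, beside 60.3% of all genes, 7 (21.9%) were higher in other cells, beside 3.69%, and 17 differed by less than 1. The median difference was 0.063, below the 1.32 of all genes, so the list lay further toward the other cells than the typical gene. Without the 3 cells under 500 genes it was -0.32, beside 1.24 for all genes. The most widely detected genes were *B2m*, the light chain of MHC class I (56 stromal and 23 other cells, means 12.03 and 11.96), and *Ifitm3*, an antiviral membrane protein (also 56 and 23 cells, means 11.53 and 10.997). These means include the zeros: in cells above 0 the median value of *B2m* was 5422 in stromal and 20862 in other cells, and that of *Ifitm3* was 3844 and 11008. *Ifi27* and the kinase *Jak1* had higher means in stromal cells (5.22 against 1.92 and 5.49 against 1.83).

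**Figure D4:**
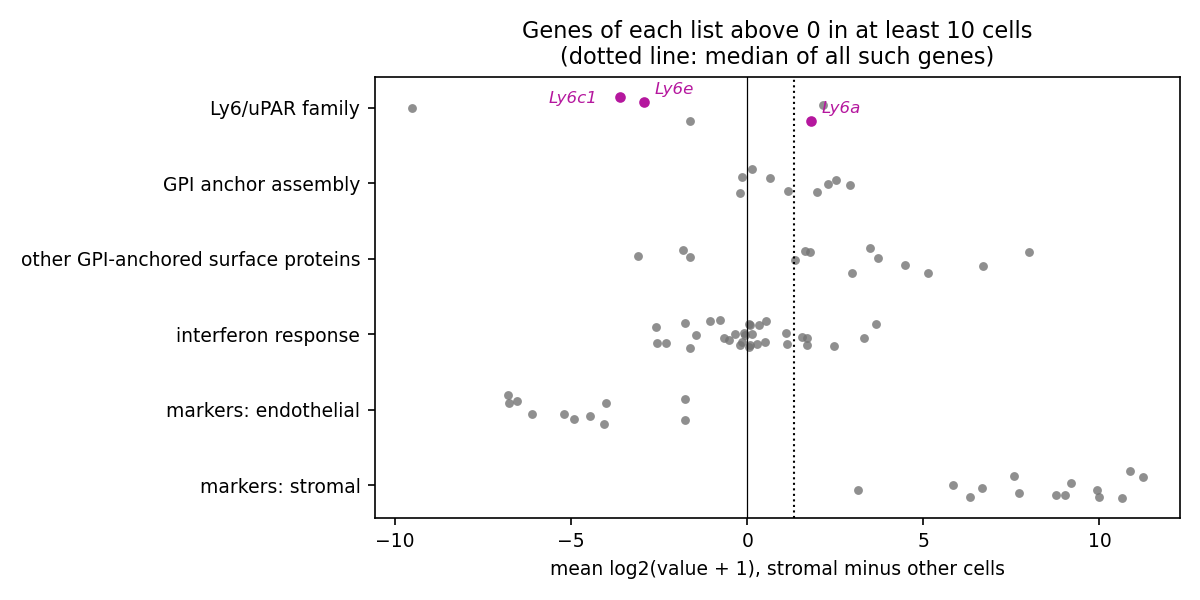
Each point is a gene above 0 in at least 10 cells, placed by its mean of log2(value + 1) in stromal minus other cells, with the lists on the vertical axis; the dotted line marks the median of all 6127 genes (1.32). *Ly6c1* (-3.62) and *Ly6e* (-2.92) lie to the left, toward the endothelial markers, *Ly6a* (1.80) lies close to the dotted line, and the interferon response genes are spread around 0.

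The genes most like each member were ranked by rank correlation over cells among all genes with a value above 0 in 10 or more cells. Over all 85 cells the nearest to *Ly6c1* after *Ly6c2* (0.71) were *Flt1*, a VEGF receptor (0.58), *Cdh5* (0.56), *Tmsb4x*, an actin-binding peptide (0.53), and *Cd36*, a fatty acid transporter (0.52), and the most opposed was *Lgals1*, a galectin (-0.53). Nearest to *Ly6e* were *Hspb1*, a small heat shock protein (0.62), *Tspan13* and the endothelial secreted protein gene *Egfl7* (0.54 each), and *Ifitm3* (0.54), and the most opposed was the lysyl oxidase gene *Loxl1* (-0.49). *Ly6a* had no gene above 0.41, the value of the pseudogene *Atp5k-ps2*, which held at most 20 reads in a cell, and *Ly6c1* came next (0.38).

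Within stromal cells alone, *Ly6c1* was the nearest gene to *Ly6a* (0.48), followed by *Atp5k-ps2* (0.46), *Ly6c2* (0.44), the growth factor gene *Fgf7* (0.43) and the thrombomodulin gene *Thbd* (0.42). Nearest to *Ly6c1* in these cells were *Ly6c2* (0.78) and *Cd248*, which encodes the fibroblast surface protein endosialin (0.52). *Cd248* was above 0 in 50 of 58 stromal cells. *Ly6e* was nearest to other genes in stromal cells, with *Mrps24* at 0.49 and *Tspo* and *Map1b* at 0.47 each, and *Ifitm3* at 0.46. In the 27 other cells the nearest genes to *Ly6c1* were *Ly6e* and *Ifitm3* (0.68 each), followed by *Gm15590* (0.66), *Ftl1-ps1* (0.63) and *Gm23374* (0.59). Without the 3 cells under 500 genes the values were 0.56 for *Ly6e* and 0.58 for *Ifitm3*. Nearest to *Ly6e* in the 27 other cells were *Gm10157* (0.77), *Malat1* (0.73), *Gm6180* (0.71) and *Gm44705* (0.70), ahead of *Ly6c1* (0.68). *Gm6180* and *Gm44705* held at most 49 and 53 reads in a cell. In the same cells the genes nearest to *Ly6a* were *Gm12411* (0.63), the pseudogene *Rpl21-ps8* (0.62) and the immunoproteasome gene *Psmb8* (0.62). These were above 0 in only 11, 10 and 10 of the 27 cells. For *Psmb8* the correlation without the 3 cells under 500 genes was 0.59. *Gm23374* was above 0 in 12 of the 27, and 11 of those held 1 to 9 reads. The mitochondrial tRNA gene *mt-Tl1* was the most opposed to *Ly6c1* (-0.69) and to *Ly6e* (-0.60), and without the 3 cells under 500 genes these were -0.62 and -0.51. Of the 23 other cells above 0 for *mt-Tl1*, 19 held 1 to 9 reads and 4 at least 100. Its order over cells thus rests mostly on counts that cannot be told apart from a low background.

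The gene most opposed to both *Ly6a* and *Ly6c1* in stromal cells was *Enpp2*, which encodes autotaxin, a secreted enzyme that makes lysophosphatidic acid, with rank correlations of -0.46 and -0.52. It was above 0 in 12 stromal cells (3 to 7924 reads) and in 0 of 27 other cells (interval 0% to 12.8%), and 3 of the 12 held only 1 to 9 reads. In these 12 cells *Ly6a* was above 0 in 7 (58.3%, interval 27.7% to 84.8%) with a median value of 1908, against 45 of the 46 remaining stromal cells (97.8%, interval 88.5% to 99.9%) with a median of 9220. *Ly6c1* was above 0 in 3 of the 12 (25%, interval 5.49% to 57.2%) and in 39 of the 46 (84.8%, interval 71.1% to 93.7%). *Ly6e* was above 0 in 11 of the 12 and 40 of the 46. With *Enpp2* counted from 10 reads, *Ly6a* was above 0 in 5 of 9 cells against 47 of 49, and *Ly6c1* in 2 of 9 against 40 of 49. *Enpp2* was picked out of 5382 genes for its correlation with *Ly6a*, so these counts describe that choice and are not independent of it.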

How the data were processed

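Single primary PV-ADSCs were sequenced as 1 library per cell. The authors aligned reads to mm9 with HISAT2 2.0.5, sorted them with SAMtools 1.4, assembled them with StringTie 1.3.3, and used scater for quality control and scaling. The unit of the deposited values is a signal of normalized read counts. The program that counted reads is not given in the sources used here. Whole reads were recovered by a method chosen after the values were seen: for 5404 genes in 13 groups the step of each cell and group was found, and all of 144272 values above 0 were whole multiples of it within 2e-09 (relative) or 1e-09 (absolute). The other 10665 genes were whole as deposited. Recovery and class differences were tested on simulated data.

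Cells were grouped by *Dcn* at 1000. Shares have exact Clopper-Pearson 95% intervals, and levels are log2(value + 1). A difference of means counted as higher at 1 or more, among genes above 0 in at least 10 cells. No test between cells was made, and no doublet caller was run. The members and gene lists were chosen with earlier results of these data known. Beside the members, the named genes were at most 8 of each list by share of cells, the 5 highest and 2 lowest rank correlations with each member over all cells and the 5 highest within each class, the cell type markers and *Dcn*. The family genes above 0 in fewer than 10 cells, the lowest correlations within each class and the split by *Enpp2* fell outside that rule and were chosen after the values were seen. Transcripts are of GRCm38, another build than mm9, so no positions are given. Python 3.11.15, numpy 2.4.6, pandas 2.3.3, scipy 1.17.1 and matplotlib 3.10.9 were used. Alternatives varied the detection level, the split, the pseudocount, the scaling, the depth and the cells kept.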

Additional observations from a re-analysis of the deposited data

How the results depend on the processing

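Bounds were the SD over cells for mean differences, the counting interval for shares and, for correlations, the interval of the value over all cells. Counts of genes at least 1 apart between the classes were bound by a set factor of the main count. Of 145 alternative values, 135 stayed within these bounds. For the mean differences this says little, as the SD over cells (4.75 for *Ly6a*, 5.40 for *Ly6c1* and 4.35 for *Ly6e*) was larger than each difference. Of the 15 alternatives for each gene, 4 put *Ly6a* under 1, and none put *Ly6c1* or *Ly6e* under 1. The difference of *Ly6a* between stromal and other cells was -0.21 over cells with at least 100 recovered reads, and ran from that to 2.75 over 15 alternatives. That of *Ly6c1* ran from -5.07 to -1.73 and that of *Ly6e* from -4.39 to -1.78, never changing sign. The rank correlation of *Ly6c1* and *Ly6e* was -0.074 in stromal cells and 0.68 in other cells. The share of stromal cells with *Ly6e* was 72.4% at 10 reads and 67.2% at 100 reads, and that of other cells was 100% over cells with at least 1000 genes and also without the 3 other cells under 500 genes, where the share with *Ly6c1* was 95.8%. The share of cells with all 3 genes was 52.9% at 10 reads and 50.6% at 100 reads. With cells thinned to 1146945 reads each it was 64.7%. The settings that left out cell 50, the 3 cells under 500 genes or cell 34, which carried markers of both classes, that split cells by *Dcn* reads, that kept cells with 100 reads of the gene, or that counted *Enpp2* from 10 reads were chosen after seeing the data. No paired analysis was possible because the cells form 1 group. With 1 sample of cells and no animal named, variation between animals cannot be given, and read counts of 1 to 9 cannot be told apart from background.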
